A study of Homo sapiens with 12 samples.

Results

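Ceapin-A7, a small molecule that blocks the stress sensor ATF6, was compared with its solvent DMSO in stressed DU145 cells, with 3 libraries in each group. DU145 is a human prostate cancer line that grows without androgen. The 6 libraries were chosen by their titles from the 12 of the series, and the other 6 hold cells transfected with ATF6 siRNA (siATF6) or with a control siRNA (siCtrl), again 3 each. Of the 21439 genes in the count table, 17823 passed a filter on low counts and all of these were examined. Cells of the Ceapin group received 10 µM of the compound for 12 h and cells of the DMSO group received the solvent for the same time, whereas siRNA cells were cultured for 24 h. Thapsigargin was present at 30 nM for 3 h in all 4 groups, controls included, so each difference is one between stressed cells, and no unstressed cells were sequenced. In the labels, a transfection field gives the DMSO libraries a control siRNA and the Ceapin libraries an ATF6 siRNA, although titles and treatment text name the solvent or the compound alone. Nothing states that replicates came from separate cultures, so p-values measure the spread between these libraries, which may be technical.

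ATF6 is a transcription factor that sits in the endoplasmic reticulum (ER) membrane. When ER folding is disturbed it travels to the Golgi, where the proteases S1P (gene MBTPS1) and S2P (gene MBTPS2) cut it, and the freed part switches on genes of ER protein folding through a promoter element named ERSE. Ceapins keep ATF6 from leaving the ER by tethering it to ABCD3, a protein of the peroxisome membrane. Thapsigargin blocks the SERCA pump that fills the ER with calcium, and the same stress also starts the sensors IRE1 (gene ERN1) and PERK (gene EIF2AK3), the latter leading to the factors ATF4 and CHOP (gene DDIT3). S1P and S2P also release SREBP, the factor that drives sterol synthesis.

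Total counts in the compound arm ran from 17760878 to 19185124 per library, and transcripts of the mitochondrial genome took 9.71% to 10.3% of them in DMSO and 10.0% to 10.5% in Ceapin. The first principal component of these 6 libraries held 23.7% of the variance and parted the groups, and the second, with 20.2%, lay within them. Each gene of the table has at least 1 count in every library, so a gene switched fully off or on could not be seen. The epithelial keratins KRT8, KRT18 and KRT19 with EPCAM and CDH1 were present, KRT8 at 610 to 661 CPM (counts scaled to the library total). The basal marker KRT5 had 1 to 3 counts. KRT14, TP63 and the androgen-driven KLK2 and KLK3 were not in the table. Of 15 markers of leukocytes, fibroblasts and endothelium, 10 were in the table; they summed to 8.83 to 10.6 CPM in DMSO and 9.97 to 11.7 in Ceapin, and none of the 8 that could be tested passed. In such bulk RNA, fewer cells of a kind and less RNA per cell cannot be told apart.

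The mRNA of ATF6 itself did not differ beyond the spread of the libraries. It stood at 69.3, 73.3 and 71.5 CPM (from here on scaled by the trimmed mean of M-values, TMM) in DMSO and at 73.2, 70.9 and 74.7 in Ceapin. The groups overlapped (log2 fold change 0.03, SE 0.0344, adjusted p = 0.75 by edgeR's quasi-likelihood test, the test of every adjusted p that follows), while ATF6 siRNA lowered this mRNA by −2.27. MBTPS1 (−0.02) and MBTPS2 (−0.07) did not pass either. Of 18 genes of peroxisome biogenesis with the tether, 0 passed with adjusted p under 0.05, the threshold used throughout. ABCD3 stood at 51.8, 51.2 and 53.5 CPM in DMSO and 51.4, 50.9 and 51.5 in Ceapin.

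In all, 394 genes rose and 429 fell with Ceapin-A7, which is 2.21% and 2.41% of the genes tested and 4.62% in either direction. The changes were small: the median fold was 1.162 among genes that rose and 1.115 among those that fell, and 26 and 23 genes changed at least 1.5-fold. The 3 Ceapin libraries lay wholly on one side of the 3 DMSO libraries for 387 of the genes that rose and 419 of those that fell, against 20.6% of all tested genes. Of the called genes, 367 that rose and 407 that fell are protein-coding. The number that fell dropped to 272 without Ceapin replicate 3 and was 294 to 326 without any 1 of the other 5 libraries.

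**Figure D1:**
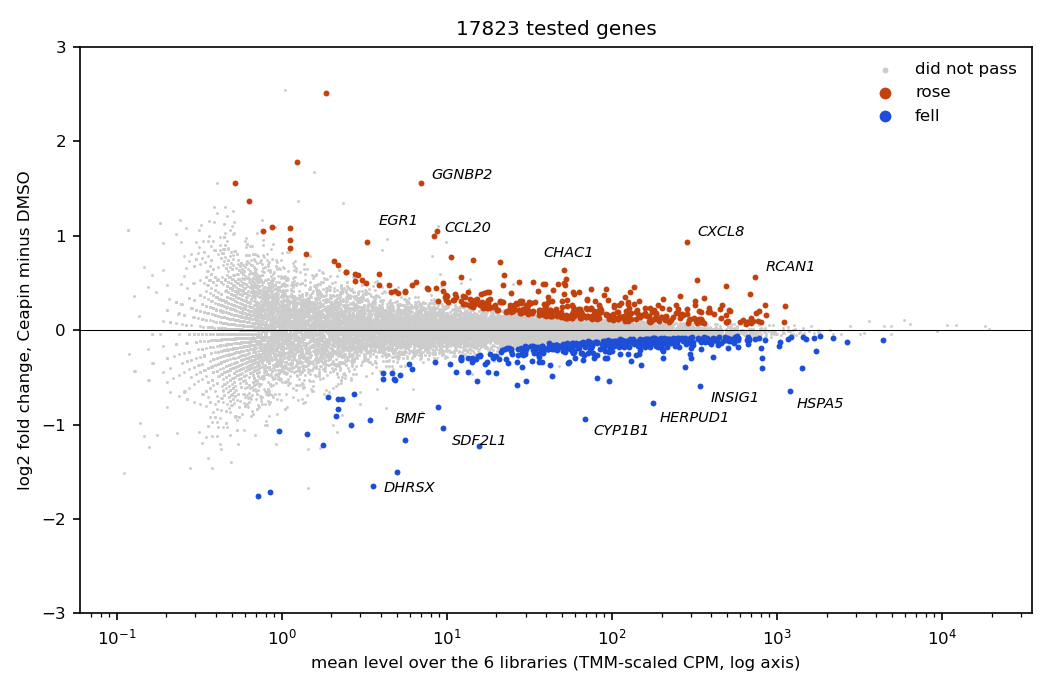
Log2 fold change (Ceapin minus DMSO, vertical axis) against the mean level over 6 libraries (TMM-scaled CPM, log axis) for 17823 tested genes, coloured by call. Most of the 823 called genes lie close to 0; SDF2L1, HERPUD1, HSPA5 and CYP1B1 stand out below, and CXCL8, CCL20 and EGR1 above, among genes that are well counted.

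The promoters of the genes that fell are shown first, because the ER stress elements that ATF6 is known to bind can be read in them. The search for the elements ERSE and ERSE-II covered RefSeq promoters (GRCh38.p14, 250 bases before to 50 bases after a start) of 11938 of the tested genes, on both strands. Below, each stretch is written 5′ to 3′ on the gene's own strand with the match in capitals, which spell out the element; where they begin with CGTGG it lies in reverse. HSPA5, HSP90B1 and CRELD2 hold ERSE, and HERPUD1, HYOU1 and SDF2L1 the shorter ERSE-II. They belong to 6 ER protein genes that fell, at chr9:125241379-125241421 (HSPA5, minus strand), chr12:103930204-103930351 (HSP90B1, plus, 2 matches), chr16:56932013-56932047 (HERPUD1, plus), chr11:119057262-119057402 (HYOU1, minus, 2 matches), chr22:21642102-21642136 (SDF2L1, plus) and chr22:49918542-49918584 (CRELD2, plus).
HSPA5: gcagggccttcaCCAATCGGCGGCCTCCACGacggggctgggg
HSP90B1: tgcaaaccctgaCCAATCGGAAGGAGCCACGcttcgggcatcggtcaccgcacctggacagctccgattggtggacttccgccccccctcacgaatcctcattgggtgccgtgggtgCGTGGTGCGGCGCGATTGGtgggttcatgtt
HERPUD1: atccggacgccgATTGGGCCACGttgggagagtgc
HYOU1: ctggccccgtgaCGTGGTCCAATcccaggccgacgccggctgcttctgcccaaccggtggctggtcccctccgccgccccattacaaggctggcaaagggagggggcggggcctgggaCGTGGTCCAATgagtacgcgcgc
SDF2L1: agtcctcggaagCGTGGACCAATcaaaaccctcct
CRELD2: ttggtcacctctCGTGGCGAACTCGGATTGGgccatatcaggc

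Of the 348 genes that fell and have a promoter in the table, 6 hold ERSE, or 1.72% (exact 95% interval 0.635 to 3.71). The element is in 10 of 11265 genes that did not pass (0.0888%) and in 25 of all 27305 genes with a promoter (0.0916%). For ERSE-II the figures are 4 genes that fell (1.15%), 11 that did not pass (0.0976%) and 19 of all (0.0696%). Neither was found among the 325 genes that rose, which allows a share of up to 0.923% by a floor of 3 counts and 1.13% by the exact 95% interval. Of the 31 tested genes with either element 10 fell, 0 rose and 21 did not pass, 16 of these with values below 0, and the median log2 fold change was −0.10 against −0.0013 over all tested genes. The 10 are HSPA5, HSP90B1, CRELD2, CALR, PDIA6 and CANX with ERSE, and HERPUD1, HYOU1, SDF2L1 and CAMTA1 with ERSE-II. The core of a related element, UPRE, with the letters TGACGTGG, was found in 7 genes that fell (2.01%), 2 that rose (0.615%), 130 that did not pass (1.15%) and 0.927% of all genes with a promoter. Among the ERSE and ERSE-II genes that did not pass is XBP1, the factor that IRE1 activates by splicing, at 0.07.

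HSPA5 encodes BiP, the HSP70 chaperone of the ER, and its mRNA lost more CPM than that of any other gene that fell. It stood at 1473, 1460.0 and 1464 CPM in DMSO and at 940.5, 932 and 944 in Ceapin, with a wide gap between the groups (log2 fold change −0.64, SE 0.0184, adjusted p = 1.5e-22). SDF2L1, a small partner of BiP's co-chaperone DNAJB11, stood at 12.6, 12.7 and 13.2 CPM in DMSO and 5.66, 6.82 and 6.25 in Ceapin. All 3 Ceapin libraries lay below every DMSO library (−1.04, SE 0.0990, adjusted p = 3.9e-09). HERPUD1, a membrane protein that assembles the ER-associated degradation machinery, went from 229, 225 and 220.5 to 129, 132 and 133 CPM (−0.78, SE 0.0265, adjusted p = 2e-20). The groups of both genes were far apart.

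Of the 16 tested BiP-type chaperones and cofactors 9 fell and 1 rose, with a median log2 fold change of −0.27. HSP90B1, the HSP90 of the ER, stood at 921, 904 and 949.6 CPM in DMSO and at 692, 708 and 695 in Ceapin (−0.41, SE 0.0219, adjusted p = 4e-15). CRELD2 (−0.58), DNAJB11 (−0.54), the secreted factor MANF (−0.50), DNAJC3 (−0.34), HYOU1 (−0.30) and DNAJB9 (−0.23) also fell. Their groups did not overlap. HSPA13, an atypical HSP70, was the member that rose (0.10), a call lost without Ceapin replicate 1 (adjusted p = 0.158), Ceapin replicate 2 (0.0644), DMSO replicate 1 (0.0863) or DMSO replicate 2 (0.107). Members that did not pass lay between −0.07 for DNAJC10 and 0.03 for CDNF.

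**Figure D2:**
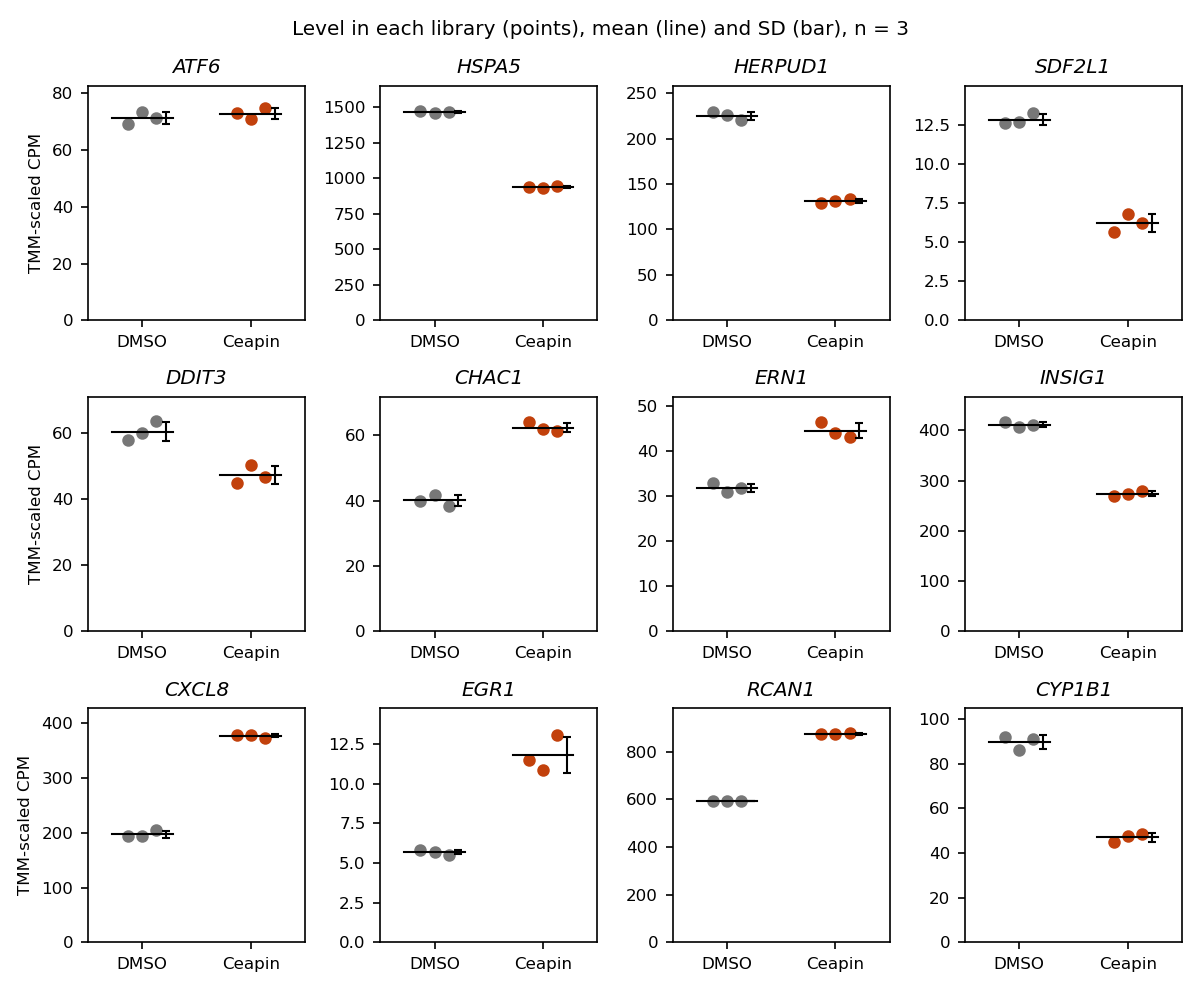
Level of 12 genes in each library (points; TMM-scaled CPM, axes from 0), with the mean (line) and SD (bar) of 3 libraries per group. The groups overlap for ATF6, whereas HSPA5, HERPUD1, SDF2L1, DDIT3, INSIG1 and CYP1B1 lie lower and CHAC1, ERN1, CXCL8, EGR1 and RCAN1 higher in all 3 Ceapin libraries.

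Other branches of ER protein handling moved less. Of 10 tested ER lectins and glucosidases 4 fell and 0 rose (median −0.06). The calcium-binding lectin calreticulin, CALR, stood at 529, 537 and 545 CPM in DMSO and at 472, 464 and 472 in Ceapin (−0.19, SE 0.0224, adjusted p = 1.8e-07), and its membrane-bound relative CANX changed by −0.10 (adjusted p = 0.0012). Of 19 disulfide isomerases and oxidases 7 fell and 0 rose (median −0.05), led by PDIA4, which makes and reshuffles disulfide bonds, at 319, 332 and 315 against 277, 270.5 and 261 CPM (−0.26, SE 0.0270). PDIA6 (−0.16), ERP44 (−0.18) and P4HB (−0.11) fell by less.

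Of 25 tested genes of ER-associated degradation, which returns misfolded proteins to the cytosol, 5 fell and 0 rose (median −0.05). Beside HERPUD1, SEL1L, the adaptor of the ubiquitin ligase SYVN1, stood at 226, 223 and 223 CPM in DMSO and 184, 183 and 180.3 in Ceapin (−0.30, SE 0.0241, adjusted p = 1.1e-10). SYVN1 itself changed by −0.24, the channel protein DERL2 by −0.30 and the extracting ATPase VCP by −0.10. EDEM1, a lectin of the same route, did not pass (−0.05). Of the 25 genes of N-glycan assembly 0 passed, and 1 of 22 genes of the signal peptidase and translocon fell. That gene, SPCS1 (−0.14), lost its call without Ceapin replicates 1 (adjusted p = 0.172) or 3 (0.0635) or DMSO replicates 2 (0.0708) or 3 (0.148). Of 26 genes of ER-to-Golgi carriers 3 fell, a number that ranged from 0 to 3 when 1 library was left out: SEC23A (−0.09) lost its call without Ceapin replicate 1 (adjusted p = 0.109), Ceapin replicate 2 (0.0735) or DMSO replicate 1 (0.112). TMED2 (−0.09) lost it without Ceapin replicates 2 (0.0575) or 3 (0.0909) or DMSO replicates 1 (0.110) or 2 (0.0679), and TMED10 (−0.08) without Ceapin replicates 1 (0.0658) or 3 (0.152) or DMSO replicates 1 (0.129) or 2 (0.0678). The medians of these ER lists lay between −0.06 and 0.00, against −0.27 for the BiP-type chaperones.

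The other stress sensors did not move as one. ERN1, the kinase and nuclease IRE1, stood at 32.88, 31.01 and 31.84 CPM in DMSO and at 46.56, 44.16 and 43.16 in Ceapin (0.48, SE 0.0490, adjusted p = 1.3e-08). All 3 Ceapin libraries lay above DMSO. XBP1 (0.07) and the PERK gene EIF2AK3 (−0.10) did not pass. Gene-level counts do not separate the spliced from the unspliced form of XBP1. PPP1R15A, the phosphatase subunit that restores translation after PERK acts, changed by 0.28, from 115, 112 and 111 to 139, 131 and 141 CPM. Of 14 tested genes of the IRE1 arm 2 rose and 2 fell (1 to 2 each when 1 library was left out), and of 10 genes of PERK, the eIF2 kinases and their phosphatase 1 rose and 2 fell. The latter 2 are DNAJC3, which inhibits PERK, and EIF2AK1 (−0.09), whose call was lost without any 1 of the 6 libraries (adjusted p 0.0559 to 0.224).

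ATF4 and many of its known targets rose, while the gene of its partner CHOP fell. ATF4 stood at 434, 441 and 435 CPM in DMSO and at 478, 476 and 473 in Ceapin (0.12, SE 0.0209, adjusted p = 0.00013). DDIT3 (CHOP) stood at 58.0, 59.9 and 63.5 CPM in DMSO and at 45.0, 50.3 and 46.8 in Ceapin (−0.35, SE 0.0469, adjusted p = 2.9e-06). In neither gene did the groups overlap. Of 12 tested genes of ATF4, CHOP and their leucine zipper partners 6 rose and 1, DDIT3, fell (median 0.16). Those that rose include CEBPB (0.49), CEBPG (0.24), CEBPD (0.30) and the pseudokinase TRIB3 (0.27). JDP2 (0.18) also rose, but its call was lost without any 1 of the 6 libraries (adjusted p 0.0537 to 0.132) and with DESeq2 (0.0712).

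Of 22 tested ATF4 effectors 12 rose and 2 fell (median 0.14). CHAC1, an enzyme that degrades glutathione, stood at 40.0, 41.8 and 38.4 CPM in DMSO and at 63.9, 61.7 and 61.3 in Ceapin (0.64, SE 0.0399, adjusted p = 1.8e-13). DDIT4, an inhibitor of mTOR signalling, changed by 0.47, the stress protein SESN2 by 0.44 and the peptide hormone ADM2 by 0.51. GDF15, a secreted stress factor, was barely expressed, at 0.332, 0.339 and 0.388 CPM in DMSO and 0.995, 0.819 and 0.948 in Ceapin (1.37, SE 0.323, adjusted p = 0.0075). The effectors that fell were HERPUD1 and the ER oxidase ERO1A (−0.11), whose call was lost without Ceapin replicate 2 (adjusted p = 0.0696) or DMSO replicate 1 (0.0763). PMAIP1, the BH3 protein NOXA, changed by 0.40 and the death receptor gene TNFRSF10B by 0.19.

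Some genes of amino acid supply rose as well. Of 13 tested amino acid transporters 8 rose and 0 fell (median 0.17). SLC3A2, the heavy chain shared by several exchangers, stood at 312, 324 and 316 CPM in DMSO and at 409.6, 403 and 396 in Ceapin (0.34, SE 0.0229, adjusted p = 9e-13). SLC38A2 (0.26), the cystine carrier SLC7A11 (0.24) and SLC1A4 (0.24) rose as well. Of 17 genes of serine, glycine, asparagine and one-carbon synthesis 5 rose and 0 fell (median 0.06), among them ASNS, the asparagine synthetase, at 170.1, 170.1 and 176 against 194, 195 and 198 CPM (0.18, SE 0.0271). Of 20 cytosolic tRNA synthetases 5 rose and 0 fell (median 0.05): GARS1 (0.16), SARS1 (0.14), MARS1 (0.12), TARS1 (0.11) and IARS1 (0.09).

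The composite site of C/EBP and ATF4 has the core TGATGCAA. This core was found in the promoters of 16 of the 325 genes that rose (4.92%, exact 95% interval 2.84 to 7.87), of 1 of the 348 that fell (0.287%), of 70 that did not pass (0.621%) and of 1.08% of all genes with a promoter. CHAC1 carries it in reverse at chr15:40953250-40953281, plus strand, shown here as the most changed amino acid response gene with a match.
CHAC1: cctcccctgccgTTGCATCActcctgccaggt
The other risen genes with the core include CEBPG, SLC1A4, SLC1A5, BCAT1, TARS1, MARS1, IARS1 and ZBTB38, the last a zinc finger factor at 727, 721 and 726 CPM in DMSO and 835, 847 and 824 in Ceapin. HERPUD1 is the fallen gene that holds it.

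**Figure D3:**
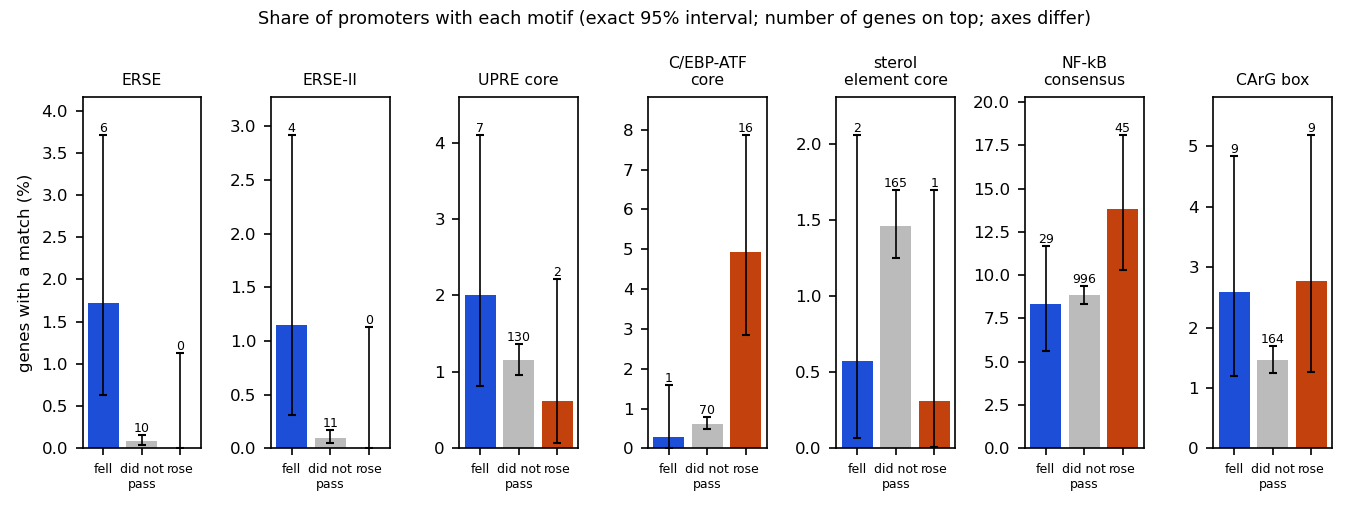
Percentage of genes that fell, did not pass or rose whose promoter holds each of 7 motifs (bars; exact 95% intervals as error bars, which cover counting error only; number of genes on top; axes differ). ERSE and ERSE-II were found in 6 and 4 genes that fell and in none that rose, and the C/EBP-ATF core in 16 that rose and 1 that fell.

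Many genes of the sterol pathway, whose factor SREBP is released by the same proteases as ATF6, were lower in the Ceapin libraries. Of 22 tested enzymes of cholesterol synthesis 14 fell and 0 rose (median −0.14; 10 to 13 fell when 1 library was left out). IDI1, the isopentenyl diphosphate isomerase, stood at 317, 310.3 and 318 CPM in DMSO and at 235, 246 and 242 in Ceapin (−0.39, SE 0.0236, adjusted p = 1e-13). HMGCS1 stood at 884, 892 and 903 against 718, 739 and 729.8 CPM (−0.29, SE 0.0205, adjusted p = 2.9e-12). The groups of both enzymes were apart, and MVD (−0.29), MVK (−0.23) and SQLE (−0.16) fell as well, while LSS (−0.14) and CYP51A1 (0.03) did not pass.

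The regulator INSIG1, an ER protein that holds SREBP back when sterols are plentiful and is itself an SREBP target, had the largest change in this group. It stood at 416, 406 and 411 CPM in DMSO and at 269, 273 and 279 in Ceapin (−0.59, SE 0.0233, adjusted p = 8.9e-19). The mRNAs of SREBP itself, SREBF1 (0.02) and SREBF2 (−0.05), and of its escort SCAP (−0.03) did not pass. The sterol carrier STARD4 changed by −0.37. Of 22 genes of fatty acid synthesis and storage 6 fell and 1 rose (median −0.06). SCD, which puts a double bond into fatty acids, stood at 1866, 1840.0 and 1839 against 1597, 1591 and 1571 CPM (−0.22, SE 0.0175, adjusted p = 6.8e-11), and FASN changed by −0.18, ACSS2 by −0.23 and ACLY by −0.15. The lipid droplet coat PLIN2 rose (0.20). A core of the sterol regulatory element, TCACNCCAC, was found in 2 of the genes that fell (0.575%), 1 that rose (0.308%), 165 that did not pass (1.46%) and 1.39% of all genes with a promoter. None of the 9 fallen cholesterol enzymes that have a promoter in the table holds it.

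Several genes of inflammation rose. CXCL8, the neutrophil chemokine, stood at 193, 193 and 205 CPM in DMSO and at 378, 377 and 373 in Ceapin (0.93, SE 0.0260, adjusted p = 1.3e-22). CCL20 stood at 5.64, 5.65 and 5.48 against 11.4, 12.2 and 9.87 CPM (0.99, SE 0.102, adjusted p = 1.6e-08). The cytokine IL6 stood at 46.8, 39.9 and 41.8 against 60.9, 64.0 and 61.9 CPM (0.54, SE 0.0476, adjusted p = 7e-10). Each of these groups was apart. Of 13 tested chemokines and cytokines 6 rose and 1 fell (median 0.29), the others that rose being CXCL1 (0.72), CXCL2 (0.27) and CSF2. CSF2 (0.70) had 1.36 to 2.16 CPM in DMSO and 2.56 to 2.83 in Ceapin, and lost its call without Ceapin replicates 1 (adjusted p = 0.0717) or 2 (0.0520) or DMSO replicates 1 (0.100) or 2 (0.124). The member that fell, IL11 (−0.21), lost its call without Ceapin replicate 2 (0.0561) or DMSO replicate 2 (0.125).

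Of 21 tested NF-kB subunits, inhibitors and feedback genes 10 rose and 0 fell (median 0.10). When 1 library was left out, 8 to 9 rose and 0 to 1 fell. TNFAIP3, the A20 protein that ends NF-kB signalling, stood at 227, 229 and 227 CPM in DMSO and at 294, 298 and 288 in Ceapin (0.36, SE 0.0226, adjusted p = 1.7e-13). BIRC3, an inhibitor of apoptosis, stood at 185, 179.6 and 182 against 233, 227 and 226 CPM (0.33, SE 0.0276, adjusted p = 2.2e-10). TRAF1 (0.48), the adhesion molecule ICAM1 (0.31), BIRC2 (0.27), SOD2 (0.20), NFKB2 (0.19) and the inhibitor NFKBIA (0.10) rose too, whereas RELA (−0.02) and NFKB1 (0.08) did not pass. The NF-kB consensus was found in the promoters of 45 genes that rose (13.8%), 29 that fell (8.33%), 996 that did not pass (8.84%) and 7.09% of all. Counted by promoter window, as a gene can have several starts, these shares were 9.28%, 6.04%, 6.73% and 5.9%. The consensus was in 4 of the 6 risen chemokines and cytokines and in 5 of the 10 risen NF-kB genes. Members of these lists that did not pass were not counted, so a link between the site and the rise was not tested. Its matches are in capitals for 3 of the most changed: CXCL1 at chr4:73869302-73869336 (plus), CCL20 at chr2:227813751-227813784 (plus, in reverse) and IL6 at chr7:22727115-22727148 (plus).
CXCL1: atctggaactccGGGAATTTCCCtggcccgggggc
CCL20: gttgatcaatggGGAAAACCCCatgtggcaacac
IL6: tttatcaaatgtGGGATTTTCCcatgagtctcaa

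Several growth factor feedback genes rose. Of 16 tested ERK feedback genes 9 rose and 0 fell (median 0.14; 6 to 7 rose when 1 library was left out). DUSP6, the phosphatase that switches ERK off, stood at 22.82, 21.97 and 22.81 CPM in DMSO and at 32.47, 32.59 and 31.23 in Ceapin (0.51, SE 0.0529, adjusted p = 2.1e-08). PHLDA1, an ERK-induced gene, stood at 274, 263 and 268 against 389, 389 and 386 CPM (0.53, SE 0.0220, adjusted p = 2.6e-18). SPRY4 (0.58) and DUSP5 (0.44) rose as well. Of 14 EGF receptors and ligands 5 rose and 0 fell (median 0.06), with the ligand HBEGF at 41.5, 42.8 and 42.6 against 60.5, 60.6 and 58.5 CPM (0.50, SE 0.0409) and the receptor inhibitor ERRFI1 at 409, 407 and 425 against 569.7, 586 and 562 (0.47, SE 0.0221).

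Immediate-early transcription factors split. Of 27 tested, 7 rose and 5 fell (median 0.05). EGR1 stood at 5.80, 5.71 and 5.54 CPM in DMSO and at 11.5, 10.9 and 13.1 in Ceapin (1.05, SE 0.110, adjusted p = 2.4e-08). FOSB went the other way, from 53.4, 49.1 and 49.9 to 34.6, 38.9 and 35.5 CPM (−0.48, SE 0.0475, adjusted p = 7.4e-09). MYC (0.39), CCN1 (0.27) and JUN (0.14) rose, and FOS (−0.36), JUND (−0.22) and SRF (−0.20) fell. The CArG box that SRF binds was found in 9 genes that rose (2.77%), 9 that fell (2.59%) and 1.60% of all genes with a promoter. Counted by promoter window, as a gene can have several starts, the shares were 1.7%, 1.7% and 1.29%.

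RCAN1, an inhibitor of the calcium-activated phosphatase calcineurin and a known target of that pathway, gained more CPM than any other gene that rose. It stood at 592, 593 and 595 CPM in DMSO and at 874, 872 and 879 in Ceapin (0.56, SE 0.0201, adjusted p = 6.2e-20). ATP2A2, the main SERCA pump and the target of thapsigargin, stood at 854, 859 and 848 against 741, 753 and 746 CPM (−0.19, SE 0.0188, adjusted p = 6.2e-09). Both pairs of groups were apart. Of 18 tested genes of ER calcium 1 rose and 2 fell (median −0.03), the other being SARAF (−0.12), which limits refilling of the store. Other large movers by level were HSPA8, the constitutive cytosolic HSP70, at 1624, 1602 and 1641 against 1222, 1264 and 1210.0 CPM (−0.40, SE 0.0200), the actin genes ACTB (−0.10) and ACTG1 (−0.13), and the nuclear long non-coding RNA NEAT1 (0.25). Of 16 cytosolic heat-shock genes 3 fell and 0 rose, while HSF1 (0.04), HSPH1 (0.00) and BAG3 (0.03) did not pass.

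CYP1B1, an oxidase that the aryl hydrocarbon receptor induces, stood at 92.2, 86.2 and 91.1 CPM in DMSO and at 44.7, 47.8 and 48.5 in Ceapin (−0.94, SE 0.0381, adjusted p = 1.8e-18). The groups were far apart. CYP1A1, the other classical target of this receptor, did not pass (−0.15), nor did TIPARP (−0.05), AHRR (−0.11) or the receptor gene AHR (0.21). NQO1, which the receptor and NRF2 both drive, changed by −0.11. In the BCL2 family 3 of 17 tested rose and 1 fell (median 0.10): BMF, a BH3 protein that promotes apoptosis, went from 10.1, 12.3 and 11.6 to 6.86, 6.28 and 6.25 CPM (−0.81, SE 0.0900, adjusted p = 8.4e-08). MCL1, which opposes apoptosis, changed by 0.19. Of 22 tested death receptors, caspases and IAPs 6 rose and 0 fell (median 0.03).

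**Figure D4:**
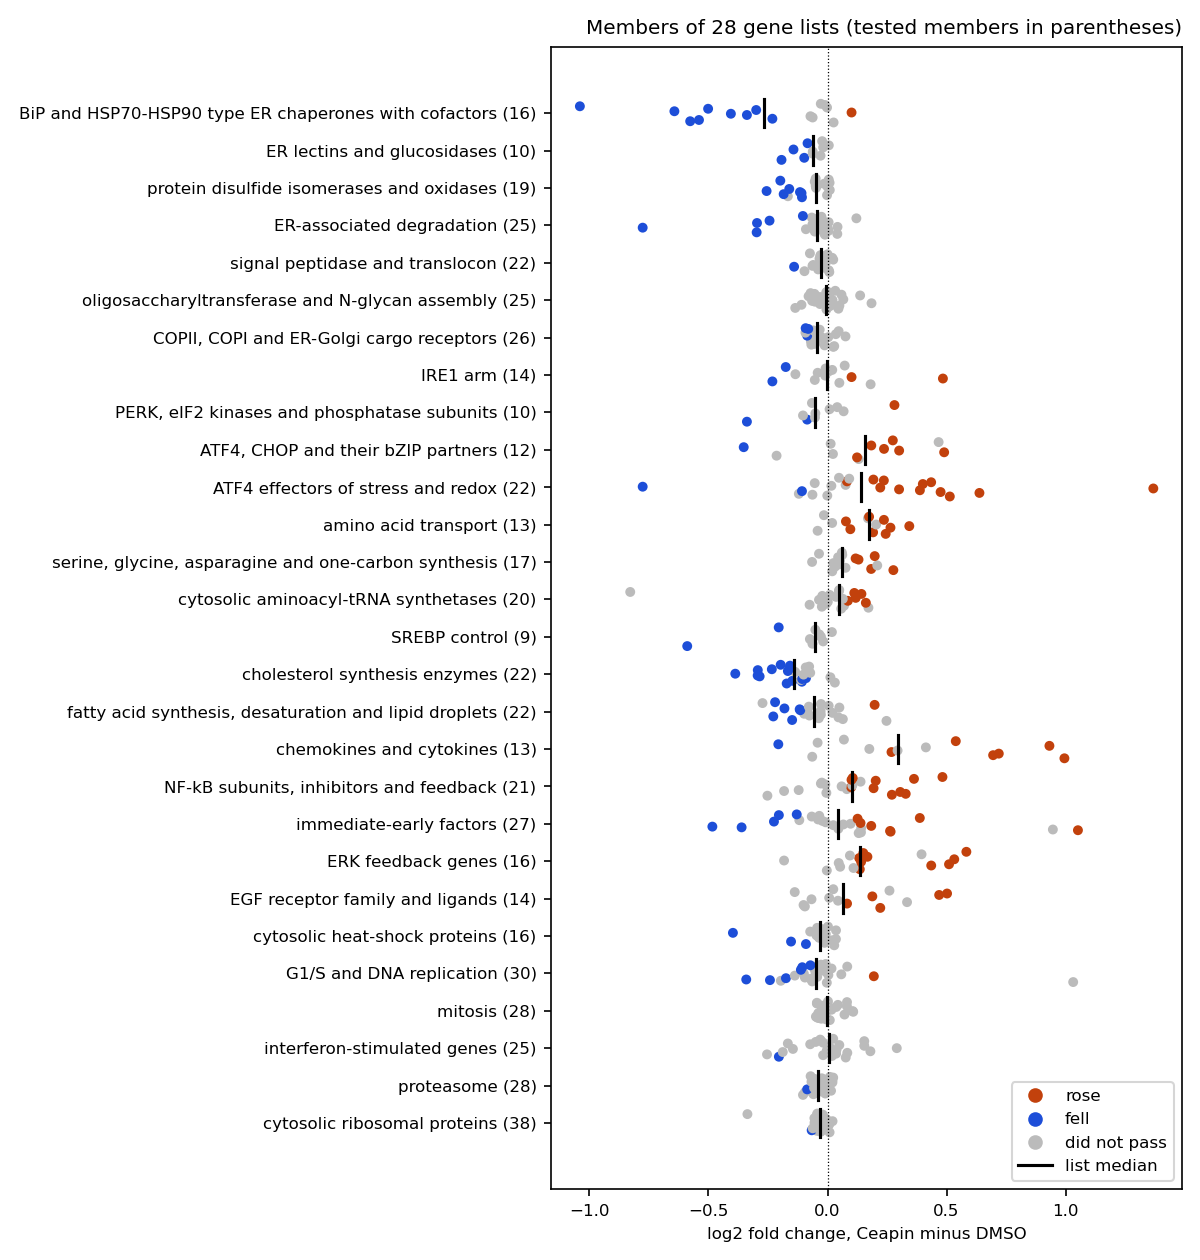
Log2 fold change (Ceapin minus DMSO) of each tested member of 28 gene lists (points, coloured by call; black line, list median; tested members in parentheses). BiP-type chaperones (median −0.27) and cholesterol enzymes (−0.14) lie left of 0, and chemokines (0.29), amino acid transporters (0.17) and ATF4 partners (0.16) right of it.

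Several of the largest folds rest on few counts or few libraries. GGNBP2 stood at 3.92, 3.67 and 2.99 CPM in DMSO and at 5.13, 18.4 and 7.75 in Ceapin (1.56, adjusted p = 0.00015), with Ceapin replicate 2 far above the rest and a value of 0.86 without it. SIK1 stood at 3.81, 14.6 and 3.77 against 3.09, 2.40 and 2.23 CPM (−1.51), and its call was lost without DMSO replicate 2 (−0.55, adjusted p = 0.0735). MAGED4 stood at 0.552, 0.508 and 0.609 against 1.15, 3.66 and 1.00 CPM (1.78), a call lost without Ceapin replicate 2 (value 0.95, adjusted p = 0.371), DMSO replicate 1 (0.0630) or DMSO replicate 2 (0.0748). Of the 31-base words of their transcripts, 87.4% (SIK1) and 99.3% (MAGED4) also occur in other genes, so their counts are uncertain. DHRSX, a dehydrogenase gene of the pseudoautosomal region, stood at 4.42, 5.93 and 6.04 against 2.10, 1.80 and 1.28 CPM (−1.65, SE 0.301, adjusted p = 0.00039) and was called in every fit.

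The siRNA arm, in which ATF6 mRNA rather than the protein's movement was targeted, gives the effects a second set of 6 libraries. The arms also differ in culture time and handling, which cannot be told apart from the agent. The effects differed between the arms for 4167 genes, or 23.4% of those tested (edgeR test of the difference), and for 516 of the 823 genes called with Ceapin-A7 (62.7%). Of the 394 genes that rose with the compound, 114 rose with siATF6 (28.9%), 115 fell (29.2%) and 165 did not pass. Of the 429 that fell, 144 fell with siATF6 (33.6%), 115 rose (26.8%) and 170 did not pass. Over all tested genes 16.1% rose and 15.3% fell with siATF6, 5589 genes or 31.4% in either direction.

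The 9 BiP-type chaperones that fell with Ceapin-A7 all fell with siATF6, and for 6 of them the effects differed. HSPA13, the member that rose with the compound, fell with siATF6 (−0.19). HSPA5 changed by −0.30 with siATF6 against −0.64 with the compound (difference −0.34, SE 0.0259, adjusted p = 3.6e-12), and SDF2L1 by −0.32 against −1.04 (difference −0.72, SE 0.149, adjusted p = 0.00037). For HERPUD1 the effects of −0.71 and −0.78 did not differ past the threshold (difference −0.06, SE 0.0381, adjusted p = 0.25). SEL1L changed more with siATF6, at −0.97 against −0.30 (difference 0.67, SE 0.0337, adjusted p = 9.7e-17). Other ER lists were mixed. Of the 4 fallen lectins and glucosidases 2 rose and 1 fell with siATF6. Of the 7 fallen disulfide isomerases and oxidases 2 rose and 3 fell, and of the 5 fallen degradation genes 0 rose and 2 fell. CALR, which holds ERSE, changed by 0.14 with siATF6 against −0.19 (difference −0.34, SE 0.0318, adjusted p = 4.3e-10). DDIT3 changed by −0.26 and −0.35, again without a difference that passed (adjusted p = 0.32). Of the 6 ATF4 and CHOP partners that rose with the compound, 5 rose and 1 fell with siATF6. Their targets were less alike in the arms. Of the 12 risen ATF4 effectors 5 rose and 2 fell with siATF6, and for 9 the effects differed. For the 8 risen amino acid transporters these numbers were 2, 4 and 6. CHAC1 changed by −0.14 with siATF6 against 0.64 (difference 0.78, SE 0.0567, adjusted p = 1e-12).

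The inflammatory and sterol genes did not move alike in the arms. Of the 10 NF-kB genes that rose with the compound 0 rose and 8 fell with siATF6, and for all 10 the effects differed. For the 6 risen chemokines and cytokines these numbers were 0 and 3, and all 6 differed: CXCL8 changed by −0.05 with siATF6 against 0.93 (difference 0.98, SE 0.0345, adjusted p = 8.9e-21). Of the 14 fallen cholesterol enzymes 6 rose and 4 fell with siATF6, and 11 differed. Among all genes that fell with the compound, 26.8% rose and 33.6% fell with siATF6, and the effects differed for 62.7% of all called genes. These members were selected by their change with the compound, which also enters the difference, so a difference is favoured. INSIG1 changed by 0.33 with siATF6 against −0.59 (difference −0.92, SE 0.0321, adjusted p = 8.8e-21). CYP1B1 changed by 0.50 against −0.94 (difference −1.44, SE 0.0462, adjusted p = 1e-21). ERN1 changed by −0.19 against 0.48 (difference 0.67, SE 0.0633).

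**Figure D5:**
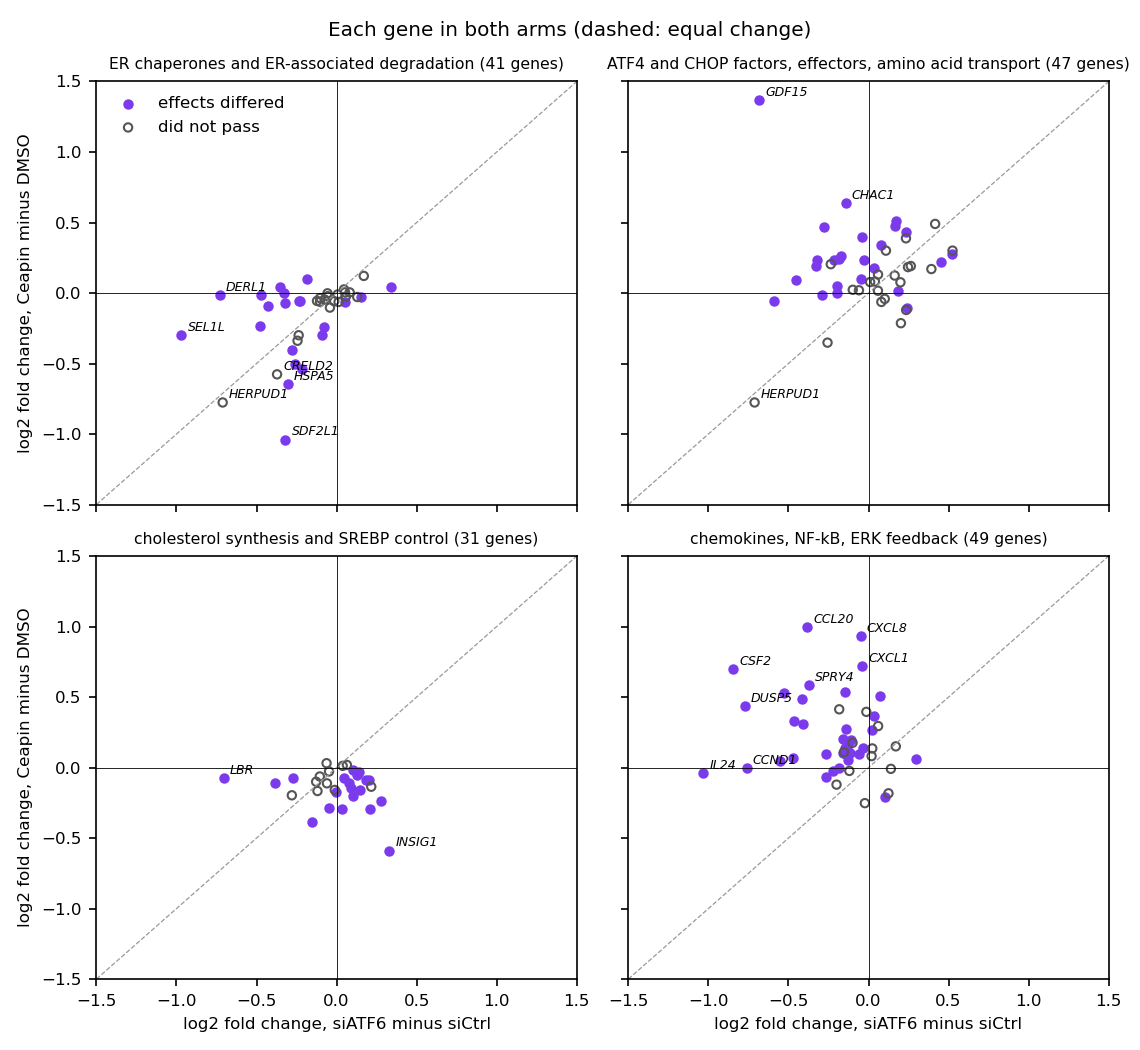
Log2 fold change with Ceapin-A7 (vertical) against that with siATF6 (horizontal) for members of 4 sets of gene lists; filled points mark genes whose effects differed, and the dashed line equal change. HSPA5 (−0.30 with siATF6 and −0.64 with the compound) and HERPUD1 (−0.71 and −0.78) lie in the lower left, CXCL8 (−0.05 and 0.93) lies above the dashed line, and INSIG1 (0.33 and −0.59) below it.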

How the data were processed

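The deposited table holds expected counts per gene, that is estimated read counts, which the authors made with Salmon and genome build hg38, per the submitters' processing notes. The Salmon version and the annotation release are not given in the sources used here. Per the labels' protocols, a stranded TruSeq kit was used on total RNA. The deposited values were already whole numbers, not scaled for depth, and 0 per-sample columns were left unused. Groups were taken from titles. A few genes are not reported here. The control siRNA columns carry no replicate label and were matched to their group only. Symbols were found for 21201 of 21439 genes and positions, on GRCh38, for 21338 in GENCODE v29.

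In R 4.3.3, edgeR 4.0.16 fitted all 12 libraries with 1 term per group, TMM scaling and filterByExpr, which removed 3616 genes. The quasi-likelihood test was two-sided, with 8 residual degrees of freedom and Benjamini-Hochberg adjustment over 17823 genes. Standard errors were derived from the F statistic. CPM values are TMM-scaled except for the cell type markers. The steps were tested on simulated data. Library pairs within a group differed by more than sampling noise (chi-square per degree of freedom 1.39 to 1.82), and no pair was identical. Technical repeats of the same RNA are not excluded by this, as library preparation can also add spread.

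The 49 gene lists, the motifs and the named genes were chosen with earlier results of these data known. Lists are described by counts and medians, without a set test. Named genes are ATF6, called genes with at least 1.75-fold change and groups apart at a mean of at least 1 CPM, the 8 largest CPM differences per direction, up to 4 called members per list, all members of lists of at most 8, and 5 per direction of the difference between arms. Genes outside this rule were added after their values were seen; they include ATF4, XBP1, EIF2AK3, ABCD3, GDF15, ADM2, CEBPD, VCP, PDIA3, ERP44, ERO1A, FOS, JUN, JUND, SRF, CSF2, CXCL2, IL11, TRAF1, PLIN2, LSS, CYP51A1, SREBF1, SREBF2, SCAP, AHR, CYP1A1, MVK, SQLE, SLC1A4, SLC1A5, NFKB1, NFKB2, NFKBIA, RELA and other members given by value only. The CHAC1, CXCL1, CCL20 and IL6 sequences were also picked after values were seen.

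Shared 31-base words were counted between GENCODE v29 transcripts of different genes; 20 of the 823 called genes shared over 50%. Promoters were 300-base RefSeq windows, and a gene with several starts counted once, with a match at any of them. The number of starts differed: 528 windows for the 325 genes that rose, 530 for the 348 that fell and 16153 for the 11265 that did not pass. ERSE and ERSE-II end in CCACG, whose reverse complement CGTGG is also the end of the UPRE core TGACGTGG, so matches can overlap. NF-kB and CArG boxes were searched by their usual consensus. Alternatives were DESeq2 1.42.0 size factors or its test, library totals, no filter, 1 CPM in 3 libraries, voom of limma 3.58.1, the 6 libraries alone, a replicate block, each library left out, a stricter p of 0.01 and a 1.5-fold minimum. Intervals and floors on shares cover counting error only.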

Additional observations from a re-analysis of the deposited data

Results flagged for a closer look

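The effect of Ceapin-A7 and that of siATF6 differed for 4167 genes by the test of the difference in edgeR (1973 higher and 2194 lower with the compound), and the values named here were singled out by that test. The arms share no libraries, and agent, culture time and handling cannot be told apart.

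Among genes called with Ceapin-A7, those with the smallest p and a higher effect of the compound were PHLDA1 (difference 1.06 in log2), DUSP5 (1.21), CXCL8 (0.98), PLAU (0.98) and ITGA2 (0.74). DUSP5, an ERK phosphatase, changed by 0.44 with the compound and −0.77 with siATF6. PLAU, the urokinase protease, changed by 0.39 and −0.59, and the collagen receptor subunit ITGA2 by 0.27 and −0.47. Those with a lower effect were TPM4 (−1.27), CYP1B1 (−1.44), INSIG1 (−0.92), ARHGAP21 (−0.75) and RRM2 (−0.65). TPM4, a tropomyosin of the actin skeleton, changed by −0.14 with the compound and 1.13 with siATF6, so its difference comes mostly from the siRNA arm. The same holds for ARHGAP21 (−0.09 and 0.66) and the ribonucleotide reductase subunit RRM2 (−0.07 and 0.58). Their calls with Ceapin-A7 were the least stable here: that of RRM2 was lost without any 1 of the 6 libraries (adjusted p 0.0658 to 0.211), and that of ARHGAP21 without Ceapin replicates 2 (0.0786) or 3 (0.143) or DMSO replicates 1 (0.0914) or 2 (0.0708).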

How the results depend on the processing

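With adjusted p under 0.01, 240 genes rose and 232 fell, and with at least 1.5-fold change 26 rose and 23 fell. Leaving out 1 library gave 274 to 326 that rose, 272 to 326 that fell and 3763 to 4055 that differed between the arms. Other scalings, filters and tests gave 277 (DESeq2) to 448 (library totals, or 1 CPM in 3 libraries) that rose and 336 (DESeq2) to 457 (DESeq2 size factors) that fell, and 3260 (DESeq2) to 4224 (1 CPM filter) that differed. Of 186 named genes that were called, 132 kept the call in every other fit. These fits used another scaling, filter, test or block, the compound arm alone, or left out 1 of its 6 libraries. The call was lost by 54 without at least 1 of these libraries and by 25 in another fit. No called value among the 217 named genes changed sign. The stricter p and the 1.5-fold minimum were not applied to these counts of named genes. Of 98 list counts, 36 moved by more than 1.5 times in at least 1 setting.

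Same-numbered libraries did not deviate together (Pearson r over genes −0.011, −0.012 and 0.00824), and pairs with different numbers gave −0.0325 to 0.0431. The labels do not say what a number marks, and a low correlation over all genes does not exclude a shared culture or batch. With the number as a block in the compound arm, 384 rose, 405 fell and 4083 differed. Depth limits genes near 1 CPM, where standard errors were wider (0.323 for GDF15) than for well counted genes (0.0184 for HSPA5).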

Other observations

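Some cell cycle genes of entry into S phase were lower. Among 30 tested G1/S and replication genes 6 fell and 1 rose (median −0.05; 4 to 5 fell and 0 to 1 rose when 1 library was left out). Those that fell include the phosphatase CDC25A at 28.8, 31.6 and 29.2 CPM in DMSO and 23.6, 23.0 and 24.1 in Ceapin (−0.34, SE 0.0516, adjusted p = 2.5e-05) and the cyclin CCNE2 (−0.24). Of 28 mitotic genes 0 passed (median 0.00), with values from −0.05 to 0.11. Of 24 epithelial and mesenchymal genes 4 rose and 2 fell (median 0.07). The tight junction gene CLDN1 stood at 119.6, 110.0 and 114 CPM in DMSO and at 159.9, 156 and 157 in Ceapin (0.46, SE 0.0306, adjusted p = 7.6e-13), MMP1 changed by 0.38 and the cadherin CDH1 by −0.14. SNAI1, a repressor of CDH1, changed by −0.52, a call lost without Ceapin replicates 1 (adjusted p = 0.105) or 3 (0.122) or DMSO replicates 1 (0.0526) or 3 (0.0522).

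Among NRF2 targets 1 of 23 tested rose and 4 fell (1 to 3 fell when 1 library was left out), and among hypoxia and glycolysis genes 5 of 28 fell and 0 rose (3 to 5), including VEGFA (−0.09), LDHA (−0.13) and the glucose carrier SLC2A1 (−0.15). Of 20 p53 pathway genes 3 rose and 1 fell (0 to 1 fell), and of 24 TGF-beta and BMP genes 4 rose and 1 fell (2 to 3 rose and 0 to 2 fell). Among 14 genes of cholesterol uptake 1 rose (0 to 1 when 1 library was left out) and 2 fell, among 11 of the aryl hydrocarbon receptor pathway 1 rose (0 to 1) and 2 fell, and among 9 arachidonate genes 2 rose (0 to 2). The last 2 are PTGS2 (0.51), which makes prostaglandins and lost its call without DMSO replicate 1 (adjusted p = 0.0635), and the receptor PTGER4 (0.18). PTGER4 lost its call without Ceapin replicates 2 (0.0993) or 3 (0.207), without DMSO replicates 1 (0.135), 2 (0.0926) or 3 (0.0708), and with DESeq2 (0.154). Of 17 genes of ferroptosis defence and iron 1 rose (1 to 2) and 2 fell (0 to 1), and of the 4 CREB3-type factors that S1P and S2P also cut 1 fell, CREB3L2 (−0.11), a call lost without Ceapin replicate 2 (0.110) or DMSO replicate 3 (0.0993). In lists of general cell state the share called was near or under the 4.62% of all tested genes, apart from 6.9% of lysosome genes. There, 1 of 25 interferon-stimulated genes (4.0%), 1 of 28 proteasome genes (3.57%) and 1 of 38 ribosomal protein genes (2.63%) fell, 1 of 29 lysosome genes rose (0 to 1 when 1 library was left out) and 1 fell (1 to 2), and 0 of 9 metallothionein and metal genes and 0 of 13 mitochondrially encoded genes passed. The interferon, proteasome and ribosomal genes, HERC5, PSMB2 and RPL15, lost their calls in 5, 4 and 6 of the 6 fits that left out 1 library, with adjusted p up to 0.221, 0.0800 and 0.153.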
